A study of Homo sapiens with 14 samples.

Results

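NF-κB signalling was examined through 10 genes: the subunits NFKB1, NFKB2, REL, RELA and RELB, and the inhibitors and feedback targets NFKBIA, NFKBIZ, TNFAIP2, TNFAIP3 and BIRC3. They were listed by name, with earlier results of these data known. All 10 were found in every table, among 25306 genes that the tables had in common. The RNA came from IMR90, a line of human lung fibroblasts that ages in culture, and was poly(A)-selected before sequencing. There were 7 groups. Young cells, still proliferating, and old cells, kept in passage until replicative senescence, were taken from each of 2 isolates of the line, named I79 and I10. I79 ICM was the I79 isolate treated with inflachromene (ICM), a small molecule that binds HMGB1 and HMGB2, and although its titles give neither dose nor time, the study's text describes a treatment of several days. HMGB2 KD was IMR90 in which HMGB2 was knocked down, by siRNA according to the study, and WT was its wild-type counterpart. The isolate of these last 2 groups, and whether WT was given a control siRNA, are not in the labels. The titles list 2 replicates for each group, with no word on whether these came from separate cultures, so p-values measure only the spread between these samples.

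In most resting cells NF-κB dimers are held in the cytoplasm by IκB proteins. In the canonical route, inflammatory cytokines activate the IKK kinase complex, IκBα is degraded and dimers of RelA or c-Rel with p50 enter the nucleus. In the non-canonical route, the NFKB2 precursor is processed and its product pairs with RelB. Several products of the pathway act back on it: IκBα (NFKBIA) traps the dimers again, A20 (TNFAIP3) edits ubiquitin chains upstream of IKK, and cIAP2 (BIRC3) is a ubiquitin ligase of TNF receptor complexes. In senescent fibroblasts NF-κB is best known for driving the secretion of cytokines and chemokines.

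Because several members are themselves NF-κB targets, their promoter windows are shown first. RefSeq windows (GRCh38.p14), from 250 bases before to 50 after a start site, were found for 9 members in 14 windows, and RELB had none. A script searched both strands for the κB pattern GGGNNNTTCC. It was present in 8 of the 14 windows and in 7 of the 9 members, against 6.52% of all 35116 windows and 7.83% of all 27305 genes. RELA and TNFAIP2 had no match in these windows. In the sequences below, which run 5′ to 3′ along the gene, capitals mark the matched letters. NFKB2 and BIRC3 are shown because they were called in old cells, NFKBIA and TNFAIP3 because they are the textbook inhibitors of the loop, and REL because its matches overlap on both strands. The windows lie at chr10:102394328-102394627 (NFKB2, plus strand), chr11:102317234-102317533 (BIRC3, plus), chr14:35404700-35404999 (NFKBIA, minus), chr6:137867009-137867308 (TNFAIP3, plus) and chr2:60881324-60881623 (REL, plus).
NFKB2: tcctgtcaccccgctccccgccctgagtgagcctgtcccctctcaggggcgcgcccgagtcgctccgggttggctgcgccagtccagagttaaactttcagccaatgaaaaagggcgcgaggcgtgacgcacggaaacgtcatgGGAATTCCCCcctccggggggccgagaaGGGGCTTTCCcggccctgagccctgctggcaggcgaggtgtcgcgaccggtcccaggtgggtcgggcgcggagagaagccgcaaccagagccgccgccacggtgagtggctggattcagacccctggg
BIRC3: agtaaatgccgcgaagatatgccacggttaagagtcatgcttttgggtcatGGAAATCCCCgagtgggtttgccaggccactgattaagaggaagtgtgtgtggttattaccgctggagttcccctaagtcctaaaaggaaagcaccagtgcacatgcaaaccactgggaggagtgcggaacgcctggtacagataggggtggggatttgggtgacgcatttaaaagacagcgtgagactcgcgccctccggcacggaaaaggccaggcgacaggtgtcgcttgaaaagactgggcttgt
NFKBIA: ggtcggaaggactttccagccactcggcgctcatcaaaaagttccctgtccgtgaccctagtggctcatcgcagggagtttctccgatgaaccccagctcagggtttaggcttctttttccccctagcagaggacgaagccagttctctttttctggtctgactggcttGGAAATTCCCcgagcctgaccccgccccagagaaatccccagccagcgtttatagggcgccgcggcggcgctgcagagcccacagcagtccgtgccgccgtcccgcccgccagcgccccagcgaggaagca
TNFAIP3: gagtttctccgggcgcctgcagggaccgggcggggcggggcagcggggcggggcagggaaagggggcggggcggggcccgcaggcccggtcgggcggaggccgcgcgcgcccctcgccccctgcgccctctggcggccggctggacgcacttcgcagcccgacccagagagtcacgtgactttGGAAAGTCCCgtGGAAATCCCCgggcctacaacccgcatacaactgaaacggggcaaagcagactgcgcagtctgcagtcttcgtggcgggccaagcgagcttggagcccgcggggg
REL: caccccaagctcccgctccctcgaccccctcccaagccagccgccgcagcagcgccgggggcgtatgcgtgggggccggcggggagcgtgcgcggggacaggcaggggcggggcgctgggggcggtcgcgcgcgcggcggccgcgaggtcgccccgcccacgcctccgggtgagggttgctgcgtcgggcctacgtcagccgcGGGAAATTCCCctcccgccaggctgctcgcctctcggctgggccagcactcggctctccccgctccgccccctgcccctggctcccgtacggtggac

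TNFAIP3 held 2 matches close together, with first bases 67 and 55 bases before the start site. In NFKBIA the match began 81 bases before it, and in BIRC3 199 bases before it. A match is a description of letters and not a bound site, and nothing in these RNA data measures binding.

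The WT and HMGB2 KD libraries held 33561766 to 41168932 counts, between 14991385 and 20632959 counts were estimated for old and young cells, and ICM gave 13290131 and 10971132 reads. Each old and young table stands for a whole group and was taken as the authors' pooled value. Whether it pools both replicates or holds a single one is not stated. The 3 kinds of table were counted in different ways, so levels between them are set side by side without a test. The 9 fibroblast markers summed to between 12470 and 33520 CPM (library-scaled counts, here over shared genes) in every library, lowest in the ICM libraries. The T cell gene CD3E, the endothelial gene CDH5 and the alveolar gene SFTPC were at 0 throughout, and PTPRC, the pan-leukocyte marker, did not exceed 0.23 CPM. Of the other endothelial and epithelial markers, EPCAM did not exceed 0.70 CPM, while VWF stood at 0.50 and 0.41 CPM in young cells, 2.83 and 2.36 CPM in old cells and 3.06 and 3.25 CPM with ICM. Among the 5 immune markers CD68 made up nearly the whole sum, at 24.1 and 26.3 CPM in young cells and 158 and 80.2 CPM in old ones, and it was called higher with age. In bulk RNA, fewer cells that use a gene and less RNA in each cell cannot be told apart.

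In young and old cells, where TPM, a share of transcripts, corrects for length, NFKBIA and RELA held the top 2 ranks of the 10 members in all 4 tables. NFKBIA, which encodes IκBα, was listed at 49.3 TPM young and 82.3 TPM old in I79, and at 59.1 and 45.1 TPM in I10. RELA, the transactivating subunit of the canonical dimer, was listed at 47.5, 53.6, 43.5 and 46.1 TPM in the same order. REL, RELB and BIRC3 took the lowest 3 ranks in every table, with REL between 1.60 and 2.15 TPM. NFKB2 had rank 6 in I79 young and 4 in I10 young, and rank 3 in old cells of both isolates.

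Replicative senescence was asked about first, by comparing old with young over both isolates. NFKB2 and BIRC3 rose with age and were the only members called. A gene was called when its log2 fold change exceeded 0.6 in either direction with an adjusted p under 0.01 (edgeR's quasi-likelihood test with Benjamini-Hochberg adjustment). This was 2 of 10 members, both higher, against 9.35% of the 15135 genes tested, of which 5.66% were called higher and 3.69% lower. All 10 members passed the filter on low counts, RELB only through the old tables. The median log2 fold change was 0.35 over the members and -0.01 over all genes tested. At an unadjusted p under 0.05 by edgeR there were 5 of 10 members, NFKB2, BIRC3, RELB, RELA and TNFAIP2, near the 45.3% of all genes tested that passed it. Isolate was the only replication, which left 1 residual degree of freedom.

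NFKB2, which encodes the precursor of the non-canonical subunit (chromosome 10, 104153867 to 104162281 on GRCh37), stood at 22.1 TMM-scaled CPM in I79 young and 60.9 in I79 old. In I10 it stood at 24.3 CPM young and 48.5 CPM old. The fold was 2.76 in I79 (95% exact Clopper-Pearson counting interval 2.44 to 3.12) and 2.00 in I10 (1.78 to 2.24). Both old tables lay above both young ones, and the fitted log2 fold change was 1.23 (SE 0.15, edgeR adjusted p 0.0084). With counts rebuilt from TPM the size was the same, 1.23, but the adjusted p was 0.011 and the call was lost.

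BIRC3 (chromosome 11, 102188215 to 102210134) encodes cIAP2, which is also part of the complex that restrains the non-canonical route. It had 13 estimated counts in I79 young and 310 in I79 old, and 31 and 252 in I10. That was 0.83 against 16.8 CPM in I79 and 1.62 against 13.9 CPM in I10. The fold was 20.2 in I79 (counting interval 11.6 to 38.4) and 8.62 in I10 (5.92 to 12.9), and the fitted log2 fold change was 3.63 (SE 0.34, edgeR adjusted p 0.0055). BIRC3 was called in all 6 alternatives to this test over both isolates.

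RELB, the partner of the NFKB2 product (chromosome 19, 45504719 to 45541450), was listed at 0 in I79 young and at 193 estimated counts in I79 old. In I10 it had 13 counts young and 93 old. By counting error alone a count of 0 allows up to 3 counts, which put I79 old at least 54.5-fold higher. The 0 is itself an estimate. Of 10553 genes at 5 CPM or more in I79 old, 10 were at 0 in I79 young. In I10 the fold was 7.58 (counting interval 4.22 to 14.8). RELB was not called (edgeR adjusted p 0.031), and the fitted value, with young at or near 0, depends on the prior count. Leaving out the filter on low counts, RELB was called (adjusted p 1.26e-14), and DESeq2 gave an adjusted p of 0.091.

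No canonical subunit was called. RELA stood at 65.7 CPM young and 83.8 CPM old in I79, and at 59.0 and 76.2 CPM in I10. Its log2 difference was 0.35 in I79 and 0.37 in I10, under the 0.6 minimum (fitted 0.36, SE 0.10, edgeR adjusted p 0.047). NFKB1, the p50 precursor, stood at 44.03 and 39.2 CPM in I79 and at 40.2 and 31.5 CPM in I10, young before old (log2 fold change -0.26, edgeR adjusted p 0.15). REL, which encodes c-Rel, differed least, at 11.2 and 11.1 CPM in I79 and 9.70 and 9.18 CPM in I10. Its counting intervals for the fold, 0.81 to 1.22 in I79 and 0.76 to 1.17 in I10, both included 1.

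TNFAIP2, a TNF-induced gene, was the member with the largest value in the other direction. It stood at 31.0 CPM in I79 young and 20.4 in I79 old, and at 26.1 and 9.12 CPM in I10. The old tables lay below the young ones in both isolates (log2 fold change -1.05, SE 0.25), but the edgeR adjusted p of 0.036 missed the threshold. DESeq2 called it (adjusted p 0.0092).

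For NFKBIA, NFKBIZ and TNFAIP3 the values of the isolates lay apart. TNFAIP3 stood at 19.9 CPM in I79 young and 54.9 in I79 old, against 18.8 and 20.6 CPM in I10. The fold was 2.76 in I79 (counting interval 2.43 to 3.14) and 1.095 in I10 (0.95 to 1.27). NFKBIA stood at 40.6 and 72.9 CPM in I79, and at 47.0 and 41.6 CPM in I10. NFKBIZ, which encodes the nuclear IκBζ, stood at 31.9 and 51.2 CPM in I79, and at 35.8 and 34.6 CPM in I10. For each of the 3 genes the counting intervals of the isolates did not overlap. The same was true of NFKB2 and TNFAIP2, so of 5 of the 9 members with counts in every table, against 23.7% of all such genes. Counting intervals narrow as counts rise, and that share was not matched for counts. These intervals cover counting error only, each isolate had 1 table a group, and the difference between isolates was not tested. None of the 3 was called over both isolates, with adjusted p of 0.36 for NFKBIA, 0.28 for NFKBIZ and 0.13 for TNFAIP3 by edgeR. Within isolates, 7 members passed 0.6 in I79 (6 higher, 1 lower), against 41.2% of all genes, and 4 in I10 (3 higher, 1 lower), against 37.3%. Scaling by library totals in place of TMM shifted the log2 scale by -0.16 in I79 and -0.26 in I10 (less for genes near a count of 0), which put TNFAIP3 at -0.13 and NFKB1 at -0.61 in I10.

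**Figure D1:**
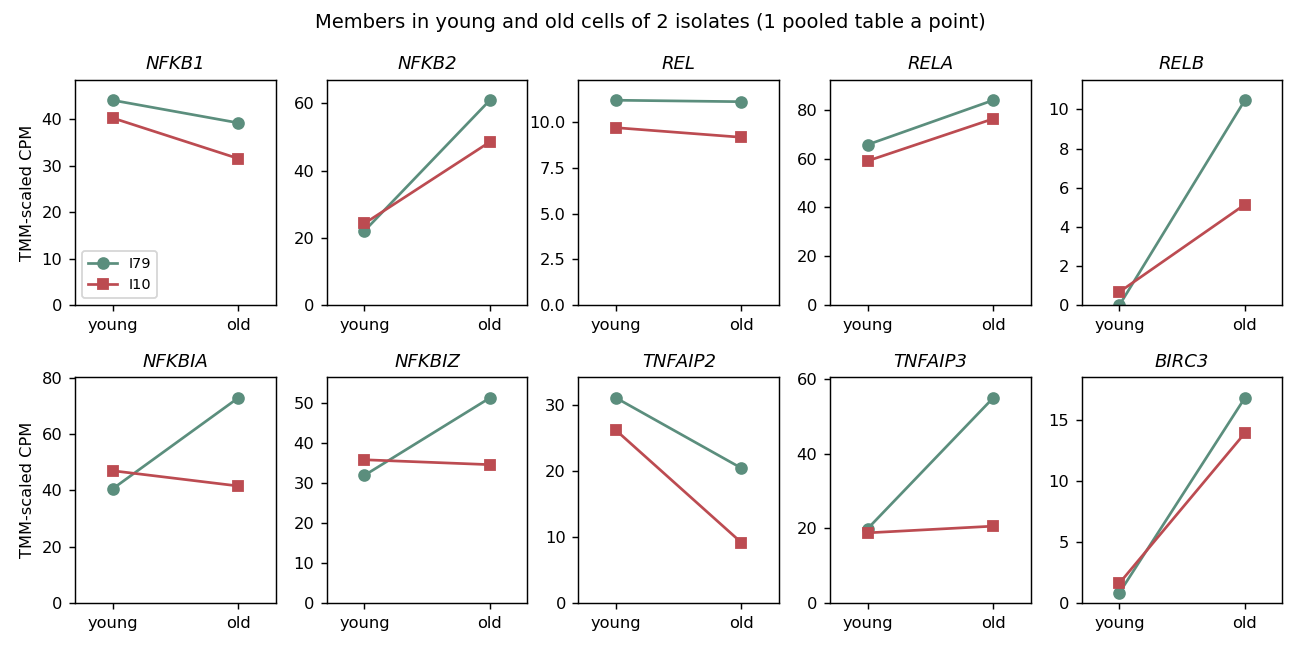
TMM-scaled CPM of each member (vertical axes, each from 0) in young and old cells. Each point is 1 table, taken as pooled. Lines join the tables of an isolate, I79 in green circles and I10 in red squares. There are no error bars, since there is 1 table a point. NFKB2, RELB and BIRC3 were higher in old cells of both isolates, while TNFAIP3 went from 19.9 to 54.9 CPM in I79 but from 18.8 to 20.6 in I10.

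The old and young tables list annotated transcripts, so the members could also be followed by transcript. In 7 of the 10 members the same transcript led in all tables that listed the gene above 0. For TNFAIP3, TNFAIP3-206 took a larger share of the gene's estimated counts in old cells of both isolates. Its share went from 12.1% to 40.0% in I79 and from 19.7% to 41.4% in I10, and TNFAIP3-201 held most of the rest. In I10, where the gene total was 360 counts young and 372 old, TNFAIP3-206 had 70.8 counts young and 154 old.

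NFKB1-202 went in opposite directions in the isolates, from 13.1% to 22.1% of NFKB1 in I79 and from 7.69% to 2.70% in I10. TNFAIP2-201 held 49.3% of TNFAIP2 in I79 young and 23.4% in I79 old, and 49.9% and 35.02% in I10. TNFAIP2-209 went from 36.2% to 56.1% in I79, and stood at 30.2% and 29.3% in I10. In NFKBIZ, NFKBIZ-202 led in I79 young (69.0%) and NFKBIZ-203 in I10 young (54.7%). These shares are estimates that divide reads between overlapping transcripts, with 1 table a group, and were not tested.

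**Figure D2:**
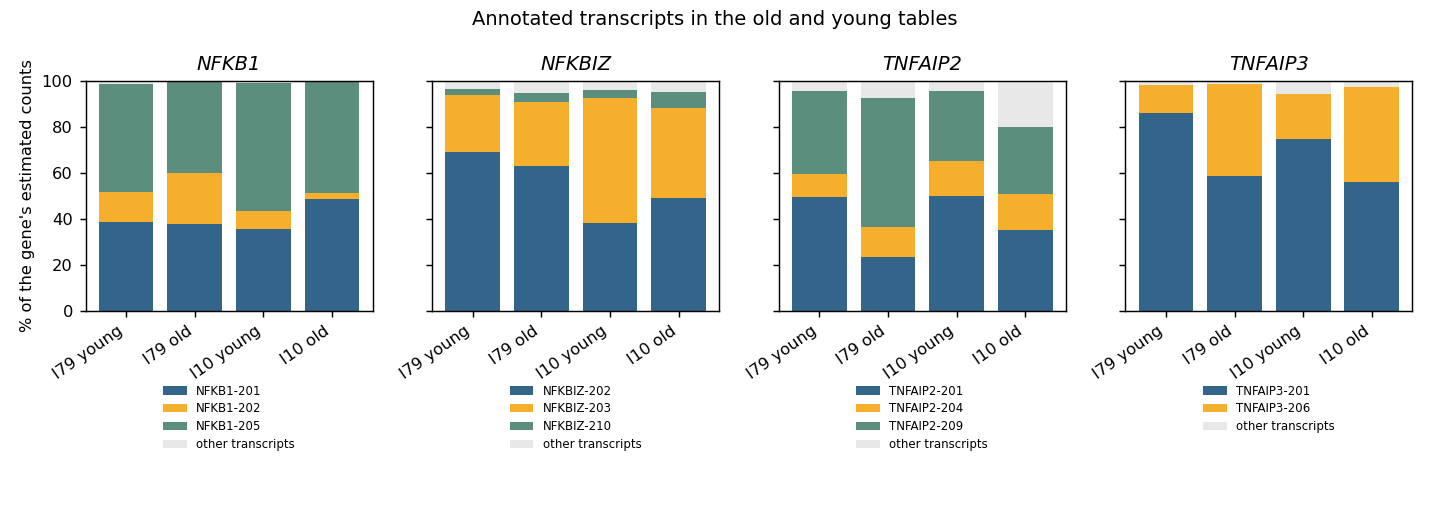
Share of the estimated counts of NFKB1, NFKBIZ, TNFAIP2 and TNFAIP3 (vertical axis, percent, stacked to 100) given to each annotated transcript with at least 20 counts in some table, in the 4 old and young tables. TNFAIP3-206 (upper coloured band) was at 12.1% and 19.7% in young cells and at 40.0% and 41.4% in old cells.

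The HMGB2 KD libraries were compared with WT next, though whether WT was given a control siRNA is not in the labels. The targeted gene stood at 27.1 and 27.3 CPM in the WT libraries and 3.22 and 3.64 CPM in the KD libraries (log2 fold change -2.99, SE 0.16, edgeR adjusted p 8.28e-07). No member was called, against 5.20% of the 15338 genes tested (2.86% higher, 2.34% lower). At an unadjusted p under 0.05 by edgeR there were 3 members, REL, TNFAIP2 and TNFAIP3, each with lower values after knockdown, where 23.9% of all genes tested passed it. DESeq2 called 0 members, with 944 called over all genes. With 1 RUVs factor edgeR called 2 members, REL and TNFAIP3, with 1121 called over all genes. The fitted log2 fold change was below 0 for 8 members, with a median of -0.25 over the members and 0.00 over all genes tested. The WT and KD libraries did not overlap for 7 members, 6 lower and 1 higher, against 53.8% of all genes.

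Among the subunits, REL stood at 12.9 and 14.5 CPM in the WT libraries and 9.10 and 8.83 CPM in the KD libraries, so the groups did not overlap. The means were 13.7 ± 1.12 and 8.96 ± 0.19 CPM (SD, n = 2). The log2 fold change was -0.61 (SE 0.16, edgeR adjusted p 0.027, not called). RELA was the only member with both KD libraries above both WT ones. It stood at 73.4 and 71.8 CPM in the WT libraries and 80.1 and 91.8 CPM in the KD libraries (log2 fold change 0.24, edgeR adjusted p 0.27).

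NFKB1 stood at 76.1 and 79.02 CPM in the WT libraries and 69.1 and 64.5 CPM in the KD libraries. NFKB2 stood at 101 and 80.5 CPM in the WT libraries and 77.5 and 70.6 CPM in the KD libraries. RELB overlapped, at 37.9 and 29.6 CPM in the WT libraries and 33.3 and 41.0 CPM in the KD libraries. The adjusted p of these 3 subunits lay between 0.21 and 0.65 (edgeR).

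Among the feedback genes, TNFAIP3 (chromosome 6, 138188351 to 138204451) had the largest difference and the widest spread. It stood at 206 and 174 CPM in the WT libraries and 145 and 84.4 CPM in the KD libraries. The means were 190 ± 22.9 and 115 ± 43.0 CPM (SD, n = 2). The log2 fold change was -0.72 (SE 0.20, edgeR adjusted p 0.033, not called). Without HMGB2 KD replicate 2 the log2 fold change was -0.38, and without HMGB2 KD replicate 1 it was -1.18. Without WT replicate 1 it was -0.599, and without WT replicate 2 it was -0.85. DESeq2 gave an adjusted p of 0.27.

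TNFAIP2 stood at 51.7 and 49.3 CPM in the WT libraries and 38.9 and 34.5 CPM in the KD libraries (50.5 ± 1.65 and 36.7 ± 3.16, SD, n = 2). The groups did not overlap, and its log2 fold change, -0.46 (SE 0.13, edgeR adjusted p 0.036), was under the fold minimum. NFKBIA overlapped, at 134 and 110 CPM in the WT libraries and 117 and 94.9 CPM in the KD libraries. NFKBIZ overlapped too, at 201 and 186 CPM in the WT libraries and 210 and 157 CPM in the KD libraries. BIRC3 was low in all 4 libraries, at 3.30 and 3.64 CPM in the WT libraries and 2.73 and 2.98 CPM in the KD libraries. The adjusted p of these last 3 genes lay between 0.46 and 0.83 (edgeR).

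**Figure D3:**
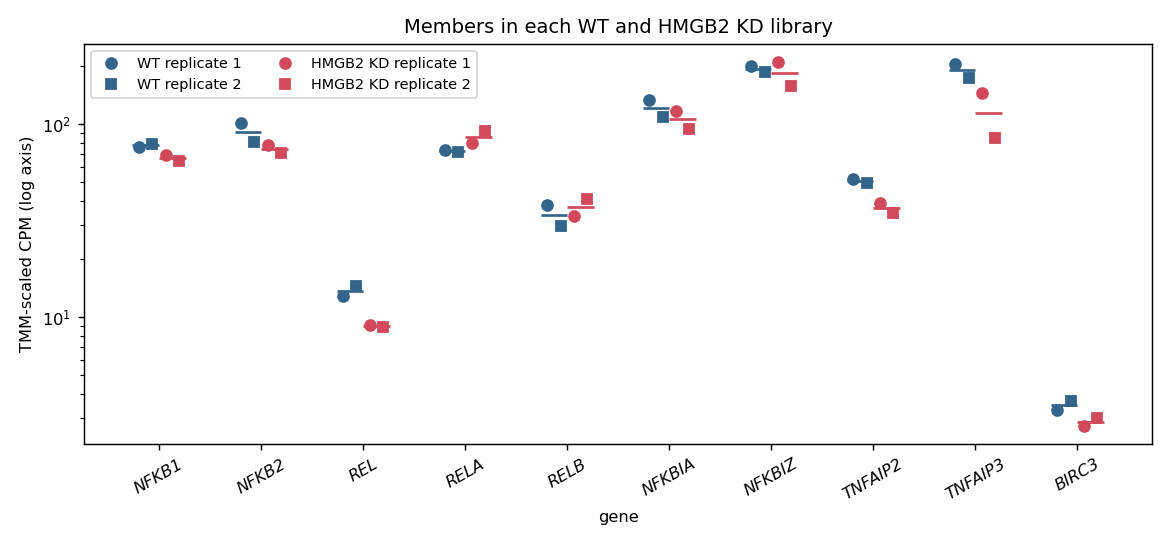
TMM-scaled CPM (log axis) of the 10 members in each WT library (blue) and HMGB2 KD library (red), with replicate 1 as circles, replicate 2 as squares and bars at the group means. In 6 members, NFKB1, NFKB2, REL, TNFAIP2, TNFAIP3 and BIRC3, both KD libraries lay below both WT ones. The groups did not overlap, in either direction, in 53.8% of all genes. TNFAIP3 had the widest gap between KD replicates, 145 and 84.4 CPM.

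The rest of the pathway was read from 6 lists of 89 genes in all. The lists were chosen with earlier results of these data known. Their counts are therefore no independent comparison with all genes. Of 28 other NF-κB target genes tested after HMGB2 knockdown, 8 were called lower, 0 were called higher and 20 were not called, against 2.34% of all genes called lower. Their median log2 fold change was -0.89, with 22 values below 0 and 6 above. At an unadjusted p under 0.05 by edgeR 19 of the 28 passed, against 23.9% of all genes tested. PTGS2, the inducible cyclooxygenase, stood at 1000 and 567 CPM in the WT libraries and 202 and 72.2 CPM in the KD libraries (log2 fold change -2.51, edgeR adjusted p 0.00059). CCL20, a chemokine, stood at 16.2 and 8.12 CPM in the WT libraries and 3.63 and 0.55 CPM in the KD libraries (log2 fold change -2.55, adjusted p 0.0062). This count turned on single libraries: without HMGB2 KD replicate 2 it was 1, without HMGB2 KD replicate 1 it was 15, without WT replicate 2 it was 16, and DESeq2 called 1. Fibroblast markers moved between the same libraries, with 3 of 9 called higher and 1 lower. COL1A1 stood at 4993 and 7924 CPM in the WT libraries and 11150 and 14690 CPM in the KD libraries, PDGFRB had a log2 fold change of 1.06, and COL3A1 one of -1.18. Their part in the result was not tested.

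Upstream of the members, the genes called after knockdown were receptors, adaptors and ubiquitin enzymes. Of all genes tested, 2.86% were called higher and 2.34% lower. No kinase of 13 tested was called, and the median was -0.06. An unadjusted p under 0.05 by edgeR was found for 4 of them, against 23.9% of all genes tested. Of 10 receptors, 3 were called lower. TNFRSF11B, the decoy receptor osteoprotegerin, stood at 803 and 782 CPM in the WT libraries and 443 and 310 CPM in the KD libraries (log2 fold change -1.07). TNFRSF1B, the second TNF receptor, had a log2 fold change of -0.81. The remaining receptor, IL1R1, the signalling receptor of interleukin 1, was singled out after its values were seen, with 658 and 645 CPM in the WT libraries and 443 and 321 CPM in the KD libraries (log2 fold change -0.77).

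Of 20 adaptors and ubiquitin enzymes, TRAF5 was called higher (log2 fold change 0.82). BTRC, the ligase subunit that recognises phosphorylated IκBα, was called lower (log2 fold change -0.73), as was TRAF3, which restrains the non-canonical route (-0.63). None of 3 other IκB genes and none of 5 ligands was called, with 2 and 3 of them at an unadjusted p under 0.05 by edgeR. Of all genes tested, 23.9% passed that limit. Over all 79 pathway genes tested, 13 were called lower and 1 higher.

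In old against young cells more pathway genes were called higher than lower. Of 24 other target genes tested, 6 were called higher and 1 lower, against 5.66% and 3.69% of all genes, with a median log2 fold change of 0.47. CCL2, a monocyte chemokine, stood at 13.9 CPM in I79 young and 89.7 in I79 old, and at 25.2 and 141 CPM in I10 (log2 fold change 2.58, edgeR adjusted p 0.0034). CXCL10, an interferon-induced chemokine, had 3 counts in I79 young and 351 in I79 old, a fold of 99.2 with a counting interval of 33.7 to 483. In I10 it had 1 and 18 counts. CXCL6, a neutrophil chemokine, was called lower, with 42 and 3 counts in I79 and 55 and 1 in I10. Both CXCL10 and CXCL6 were near 0 in 1 age group and entered the test through the other.

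The regulators of the pathway are set against all genes tested with age, of which 5.66% were called higher and 3.69% lower. TNIP1, a partner of A20, stood at 67.6 and 194 CPM in I79 and at 67.3 and 154 CPM in I10 (log2 fold change 1.36, edgeR adjusted p 0.0052). TRADD, the adaptor of TNF receptor 1, had a log2 fold change of 1.19. These were the 2 called of 21 adaptors and ubiquitin enzymes. BCL3, an IκB protein that binds p50 and p52 homodimers, was the one called of 4 other IκB genes, with a log2 fold change of -1.03.

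Of 9 receptors, IL1RAP (1.31) and TNFRSF12A (0.90) were called higher on the log2 scale. IL1R1 was called lower, at 337 and 144 CPM in I79 and at 317 and 82.0 CPM in I10, young before old (log2 fold change -1.59, edgeR adjusted p 0.0086). None of 13 kinases and none of 5 ligands was called, with 6 and 2 of them at an unadjusted p under 0.05 by edgeR. Of all genes tested with age, 45.3% passed that limit. Over all 76 pathway genes tested, 10 were called higher and 3 lower. Among the 9 fibroblast markers LUM alone was called, higher, but 8 had an unadjusted p under 0.05 by edgeR and they went both ways. VIM and DCN had log2 fold changes of 1.13 and 1.11, and PDGFRA, COL3A1 and COL1A1 of -1.18, -0.96 and -0.90. CD68 rose and VWF was higher in old cells, as given above. Their part in the result was not tested.

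**Figure D4:**
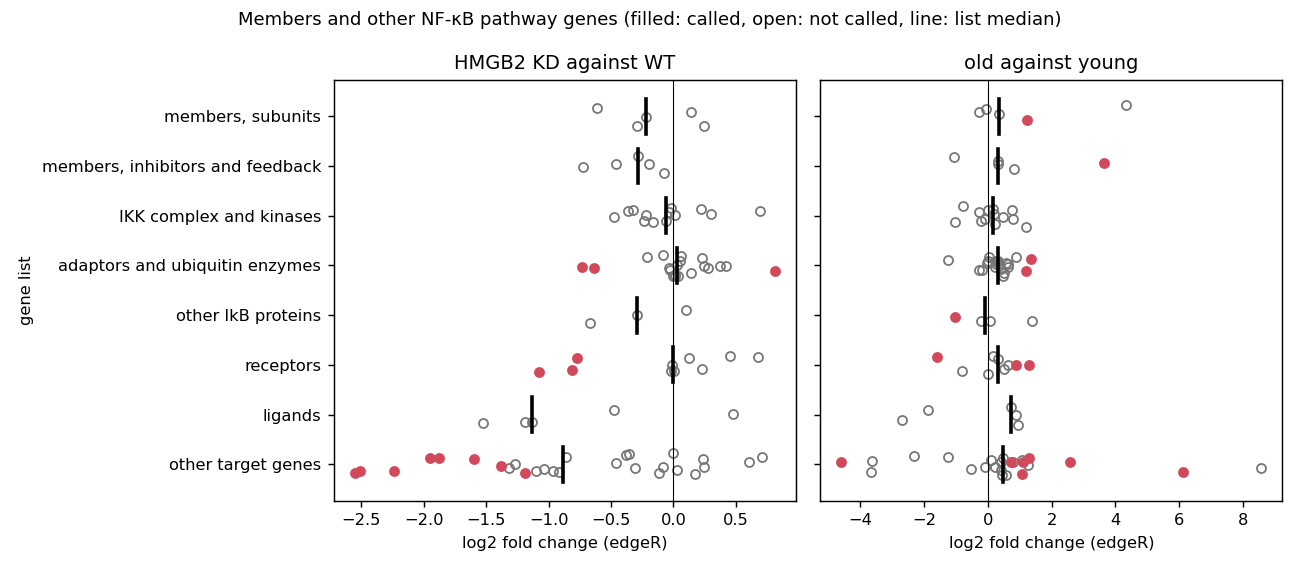
Fitted log2 fold change (horizontal axis, edgeR) of each tested member and pathway gene, by list, after HMGB2 knockdown (left) and in old against young cells (right). Filled red points were called, open points were not, short black lines are list medians and vertical scatter only separates points. The median of the other target genes was -0.89 on the left and 0.47 on the right, and fitted values beyond 4 in either direction belong to genes with few or no counts in young or old cells.

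ICM-treated cells were set against I79 young cells, on log2 CPM over shared genes with a prior count of 2. There is no test, because the tables were counted in different ways. Past 0.6 in size were 8 members, 6 lower and 2 higher, against 59.4% of 13873 genes compared, of which 28.9% were lower by more than 0.6. The median log2 ratio was -1.27 over the members and 0.00 over all genes. As a background, WT cells against I79 young had 42.1% of genes past 0.6 and 18.3% past it higher, although the labels of neither name ICM. In that comparison 8 members were higher and 0 lower, with a member median of 1.67. A ratio between these tables thus moves by more than 0.6 for many genes without the treatment, and its size is not read as an effect of ICM.

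Among the feedback genes, TNFAIP3, TNFAIP2, NFKBIZ and NFKBIA were below I79 young in both ICM libraries, and BIRC3 was not. TNFAIP3 had 31 and 17 reads, or 2.37 and 1.58 CPM, against 22.4 CPM in I79 young, 55.0 in I79 old and 217 and 183 in WT. TNFAIP2 had 3.60 and 3.52 CPM, against 34.9 in I79 young, 20.4 in I79 old and 54.3 and 51.9 in WT. NFKBIZ had 7.85 and 8.86 CPM, against 35.8 in I79 young, 51.3 in I79 old and 211 and 196 in WT.

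For each of these genes both ICM libraries lay below every other library of the series. The same held for NFKBIA, the IκBα gene, at 19.0 and 16.4 CPM, against 45.6 in I79 young, 73.0 in I79 old and 140 and 115 in WT. It held for the subunit genes REL and NFKB1 too. How many of all genes did so was not counted, and the tables were counted in different ways. REL had 1.90 and 1.62 CPM, against 12.6 in I79 young and 11.1 in I79 old. Only 20.1% and 19.0% of the REL reads in the ICM libraries lay in the coding region, against 61.1% and 61.9% of all reads. With coding and noncoding reads alone in the ICM libraries, the log2 ratio of REL was -4.35 in place of -2.78. I79 young kept all its reads there, so the ratio set unlike parts of the transcript side by side.

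NFKB1 had 22.1 and 21.9 CPM in the ICM libraries, against 49.5 in I79 young and 39.3 in I79 old. RELA was on the other side, at 97.8 and 91.2 CPM against 73.8 in I79 young, 84.0 in I79 old and 77.2 and 75.6 in WT, and its log2 ratio to I79 young of 0.35 stayed under 0.6. NFKB2 was near young cells, at 25.9 and 27.9 CPM against 24.8, and far from I79 old at 61.0. With coding and noncoding reads alone in the ICM libraries, but all reads in I79 young, its ratio passed 0.6, at 0.66.

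The 2 members counted as higher than in I79 young were RELB and BIRC3. With I79 young at 0, RELB was at least 22.7-fold higher by the limit of 3 counts, which covers counting error only. The member median stayed at -1.27 with RELB at that limit. RELB had 64 and 53 reads, or 4.90 and 4.92 CPM, against 0 in I79 young, 0.77 in I10 young and 10.5 in I79 old. BIRC3 had 2.03 and 1.67 CPM, against 0.94 in I79 young, 1.83 in I10 young and 16.8 in I79 old. Both directions turned with the control: against WT, at 39.8 and 31.1 CPM for RELB and 3.47 and 3.84 CPM for BIRC3, the log2 ratios were -2.82 and -0.955. HMGB2 itself, at 4.36 and 5.84 CPM with ICM, stood at 137 CPM in I79 young, 38.3 in I79 old and 28.5 and 28.8 in WT.

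**Figure D5:**
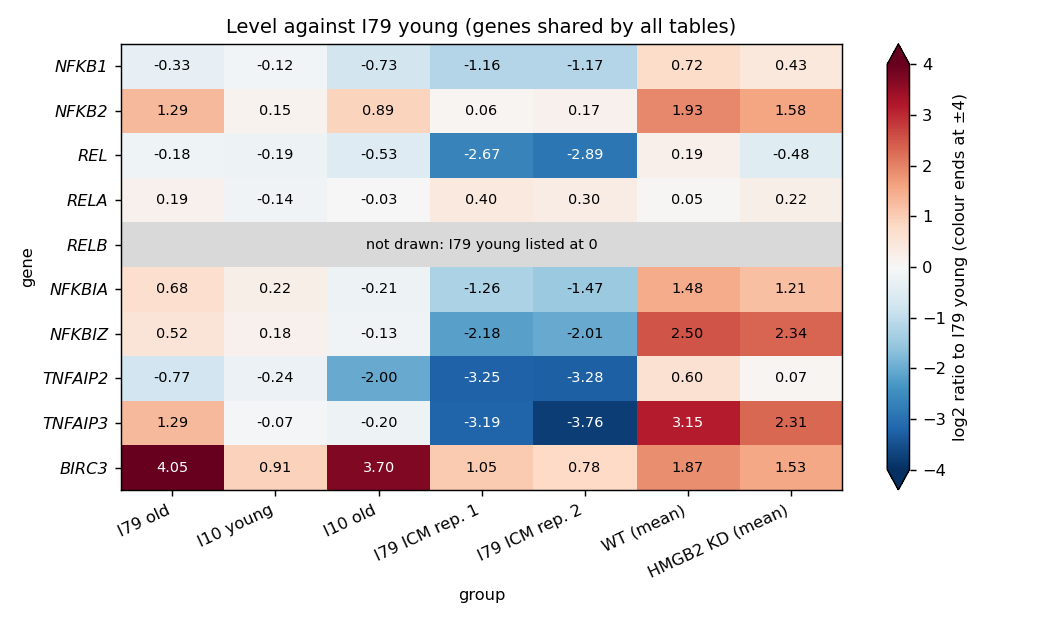
Log2 ratio of each member (rows) to I79 young in the other groups (columns), over genes shared by all tables, with red higher and blue lower and the colour scale ending at 4 in either direction. RELB is left blank because I79 young listed it at 0, so that its ratio depends on the prior count. TNFAIP2, TNFAIP3, REL and NFKBIZ were below -2.00 in both ICM columns, while WT and HMGB2 KD, counted in another way, were above 2.00 for NFKBIZ and TNFAIP3.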

How the data were processed

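RNA-seq of IMR90 cells (14 samples, 7 groups) was analysed from deposited tables. Tools named in the submitters' notes were STAR 2.6.0c, featureCounts, DESeq2 and deepTools, with GRCh37. Deposited values were raw counts per gene in WT and HMGB2 KD. Summary rows held 16.9 to 18.0% of the totals and were left out. For old and young cells the authors deposited estimated counts and TPM per transcript, 1 table a group. Here estimated counts were summed per GENCODE v44 gene lifted to GRCh37 (97.7% of transcript IDs and at least 97.2% of reads matched) and rounded. The ICM tables deposited by the authors hold estimated counts, split by gene and by region of the transcript. The counter and strand use of these tables are not given in the sources used here, so reads of NFKB1, RELA, TNFAIP2, TNFAIP3 and BIRC3 cannot be told apart from genes annotated on the opposite strand, nor can those that NFKBIZ and REL share with overlapping genes. Older symbols were matched through RefSeq synonyms where unambiguous. Reads on shared genes made up at least 95.1% of each library.

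Tests used edgeR 4.0.16 (R 4.3.3; TMM scaling, filterByExpr, quasi-likelihood test, Benjamini-Hochberg adjustment over all genes tested), 2 KD against 2 WT libraries and, with isolate as a covariate, old against young tables. The thresholds are those of the study's methods. TMM-scaled CPM are counts over TMM-scaled library sizes. The SE is the log2 fold change over the square root of F. Within isolates and for ICM no test was run. ICM ratios used genes with a mean of at least 10 counts in the ICM and I79 young tables. Counting intervals are at 95%. They and the limit of 3 counts for a 0 cover counting error only, since reads carry no molecular identifiers. Replicates of WT, HMGB2 KD and ICM differed by more than sampling noise (chi-square per degree of freedom 27.1, 41.4 and 2.23). The scripts were tested on simulated data. Alternatives were DESeq2 1.42.0, other scaling, filters and thresholds, a replicate block and leaving out libraries. The members and gene lists were chosen with earlier results of these data known. All members were named in every comparison, and from each other list at most the 2 called genes with the largest fold change in each direction, and the receptor IL1R1 was added to these after knockdown.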

Additional observations from a re-analysis of the deposited data

Results flagged for a closer look

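NFKBIA and NFKBIZ had changes of opposite sign with age in the 2 isolates, as did 19.1% of the 15135 genes tested. In NFKBIA the log2 difference, old minus young, was 0.84 in I79 and -0.18 in I10, a difference of 1.02 between isolates. In NFKBIZ it was 0.68 in I79 and -0.05 in I10, a difference of 0.73. The counting interval of the NFKBIZ fold in I10 (0.87 to 1.08) included 1. Each group of an isolate had 1 table, and the difference between isolates was not tested. With scaling by library totals the I79 values were 0.68 and 0.52 and the I10 values -0.43 and -0.31.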

How the results depend on the processing

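Over all genes, 797 were called after knockdown, 1243 with a replicate block and 312 to 999 when 1 library was left out (lowest without HMGB2 KD replicate 2). The lone library was then assumed to vary like the other group. Same-numbered libraries deviated together only weakly (r = 0.12 over 2 pairs), so the numbers were not taken as pairs. Over all genes, 944 were called with DESeq2 and 1121 with 1 RUVs factor. At an adjusted p under 0.05 there were 1187, and 1175 with no filter on low counts. The count of members called was 0, against 2 with the block, 2 with 1 RUVs factor, 2 at an adjusted p under 0.05, 1 with no filter on low counts and 0 to 1 without 1 library; these were REL and TNFAIP3. Other target genes called lower numbered 8, against 15 with the block, 15 with 1 RUVs factor, 15 with no filter, 1 with DESeq2 and 1 to 16 without 1 library. Small fold changes of uncalled members turned sign when 1 library was left out: RELB ranged from -0.032 to 0.33 and NFKBIZ from -0.31 to 0.12.

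With age, 1415 genes were called, and 1336 with counts rebuilt from TPM. There were 2159 with DESeq2, 4250 with no filter and 3847 at an adjusted p under 0.05. Of the members 2 were called, against 5 with no filter, 4 at an adjusted p under 0.05 and 1 with counts rebuilt from TPM. Other target genes called higher numbered 6, against 10 with no filter. REL was at 0.042 with counts rebuilt from TPM. In single isolates the log2 differences ranged from -0.18 to 0.84 for NFKBIA and from -0.050 to 0.68 for NFKBIZ.

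With WT as the control of the ICM libraries, 0 members were past 0.6 higher, and RELB (-2.82) and BIRC3 (-0.955) turned sign. Measuring from the median of all genes, an alternative chosen after seeing the data, left the same counts of members past 0.6, 6 lower and 2 higher. Scaling by library totals in place of TMM kept the number of members past 0.6 within 1.5 times in both isolates. The same transcript led in all tables in 7 members by TPM, and 6 of these were among the 7 by estimated counts, with NFKB1 in place of RELB. The cause of these changes was not tested. Depth limits RELB and BIRC3 in young cells (0 to 31 counts) and REL, BIRC3 and TNFAIP3 in ICM cells (17 to 31 reads).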
